A study of Homo sapiens with 24 samples.

Results

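Adrenomedullin (ADM) and 9 hypoxia-associated genes were followed across 3 ER+ human breast cancer cell lines cultured at low or high glucose. The 10 genes (ADM, VEGFA, CA9, NDRG1, ANKRD37, BNIP3, EGLN3, KDM3A, DDIT4 and HIF1A) were picked by symbol out of the 18889 gene IDs in the deposited table, with knowledge of how some of them differed between the glucose conditions. Their changes with glucose are therefore given as a description, without p-values. The other gene lists used below were also chosen with earlier results of these data known. Their p-values and shares are thus not independent tests. To model hyperglycemia in culture, the study exposed the lines MDA-MB-175, ZR-75-30 and also HCC1500 to 5 mM glucose, the control condition called low glucose, or to 25 mM glucose, called high glucose, over 48 hours. Each of the 6 groups held 4 cultures, giving 24 RNA-Seq profiles. The lines came from the American Type Culture Collection. All cultures were conditioned in low glucose beforehand and kept without serum during the treatment, and no osmolarity control was among these samples. Nothing in the labels tells whether cultures of a group were independent, so p-values measure only the spread between these cultures.

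Hypoxia-inducible factors (HIFs) are transcription factors made of an oxygen-regulated alpha subunit, such as HIF1A or EPAS1, and the constant partner ARNT. With oxygen present, prolyl hydroxylases of the EGLN family mark the alpha subunit for destruction through VHL, and in hypoxia the stabilised dimer binds the core sequence ACGTG or GCGTG near its target genes. Targets include secreted peptides such as ADM and VEGFA, the pH regulator CA9, glycolytic enzymes, and EGLN3 and KDM3A, which themselves use oxygen. Regulation of the alpha subunit is largely at the protein level, which RNA-Seq does not measure, and several targets also respond to other stresses.

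The DNA before the start sites is shown for 4 genes that are taken up below. ADM was higher at high glucose in all 3 lines, ANKRD37 is a HIF target with a cluster of core matches, DDIT4 changed in opposite directions, and EGLN3 holds no match. Each run is the 250 bases before the start, 5′ to 3′, from RefSeq on GRCh38.p14, with matches to ACGTG or GCGTG on either strand in capitals.
ADM (chr11:10304823-10305072, plus strand): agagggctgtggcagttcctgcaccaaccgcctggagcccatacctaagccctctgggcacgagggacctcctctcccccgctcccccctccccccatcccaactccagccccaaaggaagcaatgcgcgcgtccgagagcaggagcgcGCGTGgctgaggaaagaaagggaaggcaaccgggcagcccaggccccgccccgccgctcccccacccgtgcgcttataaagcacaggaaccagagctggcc
ANKRD37 (chr4:185396591-185396840, plus strand): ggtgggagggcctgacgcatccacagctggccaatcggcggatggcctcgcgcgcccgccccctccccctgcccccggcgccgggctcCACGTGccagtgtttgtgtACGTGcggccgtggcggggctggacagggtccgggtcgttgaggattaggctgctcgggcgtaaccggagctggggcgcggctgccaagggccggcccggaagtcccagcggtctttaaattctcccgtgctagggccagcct
DDIT4 (chr10:72273674-72273923, plus strand): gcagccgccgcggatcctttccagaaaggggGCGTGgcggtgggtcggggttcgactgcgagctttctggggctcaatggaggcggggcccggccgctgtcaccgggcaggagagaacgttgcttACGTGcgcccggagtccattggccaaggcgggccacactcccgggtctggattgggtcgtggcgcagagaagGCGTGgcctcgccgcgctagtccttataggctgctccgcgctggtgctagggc
EGLN3 (chr14:33951075-33951324, minus strand): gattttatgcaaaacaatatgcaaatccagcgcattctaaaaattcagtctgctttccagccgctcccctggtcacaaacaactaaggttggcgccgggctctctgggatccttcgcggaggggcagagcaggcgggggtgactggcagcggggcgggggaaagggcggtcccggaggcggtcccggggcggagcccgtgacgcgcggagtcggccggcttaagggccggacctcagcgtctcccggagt

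In the whole window of 300 bases, which extends 50 bases past the start, one of the core sequences was found in 7 of the 8 members with an entry in the RefSeq promoter table (87.5%), against 48.4% of 35116 promoters of the same length. ACGTG alone was found in 4 of the 8, against 21.4% of all promoters, and GCGTG in 5 of the 8, against 36.5%. The ADM match began at position -101, the CA9 match at -18, the KDM3A match at -26 and the HIF1A match at -204, counted from the start site. ANKRD37 held 3 overlapping or neighbouring ACGTG matches, of which 2 form the palindrome CACGTG (found in 7.3% of all promoters), since that sequence reads ACGTG on both strands. BNIP3 held 6 matches and DDIT4 held 4, of which 3 lie before the start. VEGFA and NDRG1 had no entry. A match is a description of letters and not evidence of binding.

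Deposited values are normalized read counts, in which every gene's reads were scaled by a single factor for the sample. Recovered reads ranged from 9140024 to 17998819 per sample, and a floor of 3 reads corresponded to a normalized read count between 0.95 and 2.29. These intervals and floors cover counting error only. TXNIP, a gene known to be induced by glucose and used here to check the labels, was higher at high than at low glucose in every line without overlap, with log2 changes of 1.02 in HCC1500, 0.76 in ZR-75-30 and 0.39 in MDA-MB-175 (adjusted p of 7.5e-05, 3.6e-11 and 1.1e-06, limma with Benjamini-Hochberg adjustment). One library stood apart: in HCC1500, high glucose replicate 3 was further than 1 log2 unit away from its group's other cultures, on average, for 24.7% of genes with a mean of at least 10. All 8 luminal epithelial markers were detected, and their summed level ran from 30778 to 64553 across samples. In ZR-75-30 this sum was 49036 to 53679 at low and 34942 to 40806 at high glucose. At an adjusted p under 0.05 (limma), 5 of the 8 markers fell and 1 rose there, beside 22.7% and 23.4% of all genes. In MDA-MB-175, 4 fell and 1 rose, beside 13.7% and 11.9%, and in HCC1500 1 fell, beside 13.0%. Without HCC1500 high glucose replicate 3, 5 fell and 3 rose in HCC1500, beside 37.7% and 20.9%. The part of these markers in the results was not tested. CD14, the 1 of 5 leukocyte markers in the table, was at 8.26 to 26.7 at high and 0.431 to 3.04 at low glucose in HCC1500, and its part in the results was not tested.

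All 10 members passed the filter on low values in each line (4 or more of the 8 samples at a normalized read count of 0.5 or higher). At an adjusted p under 0.05, 6 members were past the threshold in MDA-MB-175, beside 25.7% of all genes tested. Of these, 5 were higher at high glucose and 1 was lower, beside 11.9% and 13.7% of all genes, and the conditions did not overlap for 6 members and 26.6% of all genes. In ZR-75-30, 9 were past it beside 46.0% (5 higher beside 23.4%, 4 lower beside 22.7%), and 9 did not overlap beside 42.0%. In HCC1500, 4 were past it beside 20.5% (2 higher beside 7.46%, 2 lower beside 13.0%), and 5 did not overlap beside 32.4%. Without high glucose replicate 3, the HCC1500 count was 6 beside 58.5% (4 higher beside 20.9%, 2 lower beside 37.7%), and 6 did not overlap beside 57.8%. On average over the lines 35.9% of all genes were past the threshold, 16.8% higher and 19.1% lower. The glucose contrast had been known when the members were chosen, so nothing is read from these counts. ADM and VEGFA were higher at high glucose in all 3 lines, while NDRG1, DDIT4 and HIF1A were past the threshold in opposite directions in at least 1 pair of lines. The median log2 change of the members was 0.14 in MDA-MB-175 beside -0.02 over all genes tested, 0.06 in HCC1500 beside -0.06, and -0.02 in ZR-75-30 beside 0.01.

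**Figure D1:**
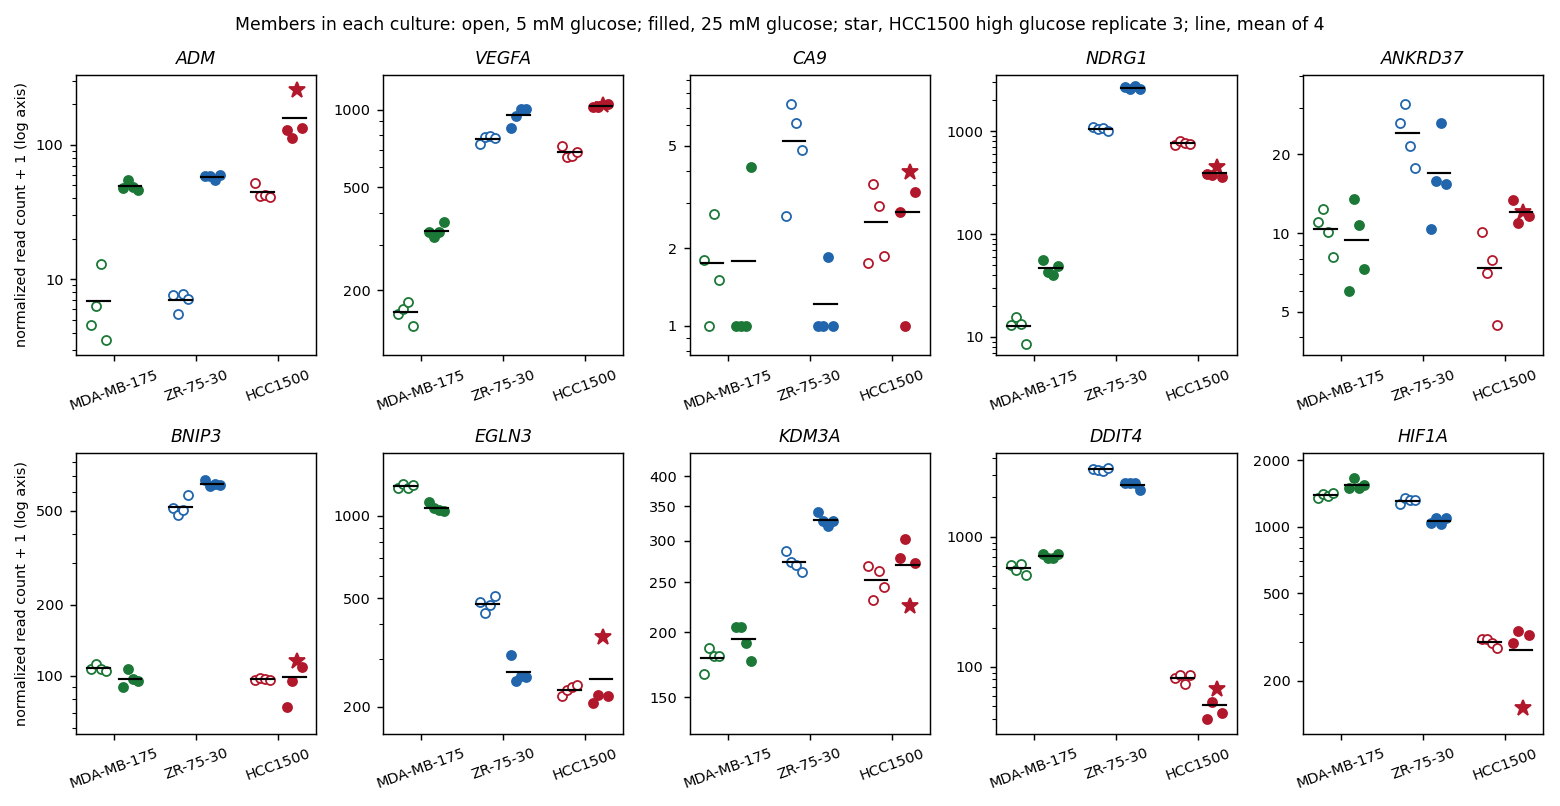
Normalized read count plus 1 (log axis) of each member in all 24 cultures, by cell line, with open points for 5 mM and filled points for 25 mM glucose, a star for HCC1500 high glucose replicate 3 and a line at the mean of 4 cultures. The ADM points at high glucose lie above all low-glucose points of the same line, and the star lies apart for ADM (255), EGLN3 (359) and HIF1A (149).

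ADM (ENSG00000148926, chr11:10326620-10328944, plus strand, GRCh37) encodes the precursor of adrenomedullin, a secreted vasodilator peptide. In MDA-MB-175, the low-glucose cultures had normalized read counts of 3.61, 5.36, 12 and 2.54 and the high-glucose cultures 47.0, 53.4, 47.6 and 45.2. The means were 5.87 ± 4.22 and 48.3 ± 3.54 (SD, n = 4), a log2 change of 3.02 ± 0.30 (SE), which ranked 9 from the top among 17029 genes. In this line the conditions did not overlap, and the lowest high-glucose culture was far above the highest low-glucose culture, although the low-glucose values rest on only 5 to 21 reads. ZR-75-30 gave 6.65, 4.55, 6.84 and 6.11 at low glucose against 57.3, 58.1, 54.0 and 58.9 at high glucose. Its log2 change of 3.06 ± 0.19 ranked 11 of 15834. These 2 lines started from similarly low levels and reached similar ones. HCC1500 had 51.3, 40.7, 41.0 and 40.0 at low glucose, and 127, 111, 255 and 133 at high glucose, a log2 change of 1.76 ± 0.25 that ranked 91 of 16361. The value of 255 belonged to replicate 3, and without it the log2 change was 1.5 ± 0.11, with no overlap between conditions. In these bulk cultures, more cells making a transcript and more of it per cell cannot be told apart.

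The log2 change of ADM in HCC1500 was smaller than in MDA-MB-175 by 1.26 ± 0.39 and smaller than in ZR-75-30 by 1.3 ± 0.39, and without HCC1500 high glucose replicate 3 these differences were 1.52 ± 0.35 and 1.56 ± 0.35. MDA-MB-175 and ZR-75-30 differed by -0.03 ± 0.39. These differences were not tested, since the members were chosen with the changes in view. Fold changes of ADM depended on the scale: with each sample rescaled to a common total as CPM, where the pseudocount of 1 weighs more, the log2 change was 2.22 in MDA-MB-175 and 2.24 in ZR-75-30.

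Receptor and processing genes of the adrenomedullin system were taken as a list of 13, of which 9 were in the table, with CALCA, CALCB, IAPP and GPR182 not analysed here. CALCRL, the receptor that binds adrenomedullin together with a RAMP protein, was at or under the floor in every culture (at most 0.670). RAMP1, an accessory protein that steers CALCRL toward the related peptide CGRP, rose in HCC1500 from 72.9 ± 8.87 to 404 ± 306 (SD, n = 4), a log2 change of 2.22 ± 0.38 (adjusted p = 0.00451, limma with Benjamini-Hochberg adjustment), and the change was 1.78 without high glucose replicate 3. RAMP3, an accessory of the adrenomedullin receptor, had 6.91 ± 2.33 at low and 22.9 ± 12.7 at high glucose in HCC1500 (log2 change 1.52 ± 0.37, limma adjusted p = 0.0205), a call lost without low glucose replicate 1 (1.3) or 4 (1.51). PAM, which amidates the peptide into its active form, rose in ZR-75-30 from 158 ± 12.8 to 275 ± 20.5 (log2 change 0.80 ± 0.07, limma adjusted p = 4.4e-08). It changed by 0.23 ± 0.06 in MDA-MB-175 (limma adjusted p = 0.0107) and by 0.21 ± 0.09 in HCC1500 (0.141), where it was past the threshold without high glucose replicate 3 (0.17, adjusted p = 0.0392) and by DESeq2 (0.26). RAMP2, another accessory of the adrenomedullin receptor, was at 16.0 ± 2.84 at low and 11 ± 9.93 at high glucose in HCC1500 (-0.84 ± 0.50, limma adjusted p = 0.279), and without high glucose replicate 3 it fell (-1.33, adjusted p = 5.0e-04), opposite to RAMP1 and RAMP3. CALCR, the calcitonin receptor, changed by 0.34 ± 0.20 in HCC1500 (0.51 without that library, limma adjusted p = 0.015), and MME, a peptide-degrading protease, by 0.09 ± 0.22 in MDA-MB-175 (limma adjusted p = 0.802). ADM2, a related peptide, rose in MDA-MB-175 (0.68 ± 0.13, limma adjusted p = 8.4e-04) and fell in ZR-75-30 (-0.34 ± 0.10, adjusted p = 0.0108). CXCR7, a scavenger receptor for adrenomedullin, rose in ZR-75-30 from 51.3 ± 1.22 to 85.6 ± 9.54 (0.72 ± 0.11, limma adjusted p = 2.3e-05), and its HCC1500 call (0.39 ± 0.12, adjusted p = 0.046) was lost in 6 of the 8 fits that left out 1 culture. Of the list, 3 of 6 tested genes rose in MDA-MB-175 (beside 11.9% of all genes) and 3 of 7 rose in HCC1500 (beside 7.46%). In ZR-75-30, 2 of 4 rose and 1 fell (beside 23.4% and 22.7%). The MDA-MB-175 count includes RAMP1 near the floor (0.828 to 2.74), a call lost by edgeR and in 6 of the 8 fits that left out 1 culture. In HCC1500 the count was 1 without low glucose replicate 1 or 4. It was 2 without low glucose replicate 2 or 3 or high glucose replicate 1 or 4. Without high glucose replicate 3, 5 rose and 1 fell, beside 20.9% and 37.7% of all genes.

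VEGFA (ENSG00000112715, chr6:43737921-43754224, plus strand) encodes vascular endothelial growth factor A, the main angiogenic ligand. MDA-MB-175 had 161, 168, 180 and 145 at low glucose and 334, 320, 335 and 365 at high glucose, a log2 change of 1.05 ± 0.07. The conditions were widely separated, and the high mean was 2.07 times the low one. In ZR-75-30 the values were 735, 784, 792 and 774 against 848, 941, 1003 and 1003, with a log2 change of 0.30 ± 0.05. HCC1500 gave 724, 653, 663 and 687 against 1022, 1020, 1043 and 1049, a change of 0.60 ± 0.07, and here replicate 3 at high glucose (1043) lay within the range of its group. The changes of all 3 lines were without overlap, and the change was larger in MDA-MB-175 than in ZR-75-30 by 0.75 ± 0.09 and than in HCC1500 by 0.45 ± 0.09.

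Among the other ligands and receptors of the VEGF family (9 genes), VEGFB, a ligand of FLT1, rose in ZR-75-30 from 24.2 ± 4.28 to 60.4 ± 4.29 (log2 change 1.3 ± 0.15, limma adjusted p = 1.2e-06). In HCC1500 its change was -0.02 ± 0.34 (limma adjusted p = 0.983), and without high glucose replicate 3 it was -0.41 (9.5e-07). FLT1 itself was at 0.561 ± 0.648 at low and 5.26 ± 3.84 at high glucose in ZR-75-30, near the floor (1.92 ± 0.45, limma adjusted p = 0.00158). VEGFC, a lymphangiogenic ligand, fell in ZR-75-30 (-0.75 ± 0.22, limma adjusted p = 0.00996). NRP1, a co-receptor, rose in ZR-75-30 from 64.9 ± 9.66 to 91.5 ± 6.10 (0.50 ± 0.11, limma adjusted p = 0.00142). PGF, another FLT1 ligand, was near the floor in MDA-MB-175 (0.728 to 3.91, 1.56 ± 0.43, limma adjusted p = 0.0136). FLT4, the receptor of VEGFC, went from 17.3 to 11.1 there (-0.63 ± 0.22, limma adjusted p = 0.0432). The FLT4 call was lost by edgeR (-0.59) and by DESeq2 (-0.60), among other settings. KDR, the main receptor of VEGFA, was at 17.1 and 25.1 in MDA-MB-175 (0.55 ± 0.20, limma adjusted p = 0.0555). It was past the threshold by edgeR (0.57), with median-of-ratios factors (0.57) and on the CPM scale (0.42), among other settings. NRP2 was at 2.98 and 5.19 in MDA-MB-175 (0.64 ± 0.31, limma adjusted p = 0.147). FIGF, a lymphangiogenic ligand, was at 2.92 and 6.21 in ZR-75-30 (0.94 ± 0.39, limma adjusted p = 0.0557), past the threshold with a pseudocount of 5 (0.50), among other settings. In MDA-MB-175, 3 of 8 tested genes of the list rose and 1 fell (beside 25.7% of all genes past the threshold). All 4 calls (VEGFB, PGF, NRP1 and FLT4) were lost without high glucose replicate 2, and 1 rose without high glucose replicate 1. In ZR-75-30 3 of 6 rose and 1 fell (beside 46.0%), and in HCC1500 0 of 5 were past the threshold by limma, by edgeR or by DESeq2 (2, 2 and 1 at an unadjusted p under 0.05). Without HCC1500 high glucose replicate 3, 3 of the 5 fell, beside 37.7% of all genes.

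CA9 (ENSG00000107159, chr9:35673925-35681156, plus strand) encodes carbonic anhydrase IX, a cell-surface enzyme that is widely used as a hypoxia marker. It was near the floor in every line. ZR-75-30 had 1.66, 6.26, 5.13 and 3.82 at low glucose and 0, 0, 0.850 and 0 at high glucose, which is 28 reads in all against 2. The ratio of low to high glucose was 15.2, with a 95% counting interval from 3.84 to 132, and the conditions did not overlap. MDA-MB-175 had 6 reads in each condition, and HCC1500 17 at low and 12 at high glucose, so that no difference was detectable at this depth. The gene shares 571 exon bases with ARHGEF39 on the opposite strand, and whether the counting used strand was not given in the sources used here. The fitted log2 change of -2.07 ± 0.41 in ZR-75-30 depends on the pseudocount and ran from -4.47 to -0.61 across the settings tried. CA12, a related membrane carbonic anhydrase, was abundant: it rose in MDA-MB-175 (1811 to 2079, log2 change 0.20 ± 0.04, limma adjusted p = 9.9e-04) and fell in HCC1500 (3426 to 2372, -0.53 ± 0.07, limma adjusted p = 9.3e-04).

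NDRG1 (ENSG00000104419, chr8:134249418-134314265, minus strand) encodes a stress-responsive protein induced by hypoxia and differentiation. In MDA-MB-175 it was at 12, 14.7, 12.5 and 7.63 at low glucose and at 54.9, 41.5, 39.4 and 47.8 at high glucose, a log2 change of 1.90 ± 0.19. In ZR-75-30 it was at 1107, 1044, 1065 and 1001 against 2699, 2602, 2740 and 2598, a change of 1.33 ± 0.04. Both lines thus had higher values at high glucose in every culture, from very different starting levels. HCC1500 went the other way, with 735, 800, 776 and 758 at low and 385, 376, 444 and 355 at high glucose, a change of -0.98 ± 0.09 (-1.04 ± 0.04 without replicate 3). The conditions did not overlap in any line. In GENCODE, same-strand exons of ENSG00000289316 cover 753 bases of NDRG1 exons. Whether the Ensembl annotation used for counting held that gene was not examined. Of the paralogs, NDRG2 fell in MDA-MB-175 (298 to 214, -0.48 ± 0.07, limma adjusted p = 6.8e-05) and NDRG3 rose in ZR-75-30 (785 to 960, 0.29 ± 0.04, limma adjusted p = 8.7e-06). In HCC1500, NDRG3 was at 641 and 525 (-0.30 ± 0.10, limma adjusted p = 0.069), past the threshold by edgeR (-0.26), by DESeq2 (-0.24), with other scalings and without high glucose replicate 3 (-0.38), and NDRG2 changed by -0.46 ± 0.29 (0.318; -0.69 and past the threshold without that library).

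ANKRD37 (ENSG00000186352, chr4:186317175-186321782, plus strand), an ankyrin repeat protein and HIF target, was past the threshold in none of the 3 lines. HCC1500 had 9.12, 6.03, 6.90 and 3.44 at low and 12.4, 9.95, 11.1 and 10.6 at high glucose, which did not overlap, with a log2 change of 0.76 ± 0.26, past the threshold without high glucose replicate 3 (0.76 ± 0.28). The log2 change was -0.20 ± 0.27 in MDA-MB-175 and -0.56 ± 0.26 in ZR-75-30, where the conditions overlapped and the call was gained without low glucose replicate 4 (-0.70) or high glucose replicate 3 (-0.80). ANKRD37 shares 909 exon bases with UFSP2 on the opposite strand. BNIP3 (ENSG00000176171, chr10:133781188-133795471, minus strand) encodes a mitophagy receptor. In ZR-75-30 it was at 510, 478, 504 and 583 at low against 674, 635, 649 and 642 at high glucose (log2 change 0.33 ± 0.05), with no overlap. The changes in MDA-MB-175 (-0.15 ± 0.08) and HCC1500 (0.01 ± 0.15) had overlapping conditions.

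EGLN3 (ENSG00000129521, chr14:34393433-34931980, minus strand) encodes prolyl hydroxylase PHD3, the HIF-induced member of the enzymes that mark HIF alpha subunits. It was lower at high glucose in MDA-MB-175, where the values were 1268, 1310, 1267 and 1299 at low and 1124, 1068, 1054 and 1045 at high glucose (log2 change -0.26 ± 0.04). In ZR-75-30, 481, 438, 472 and 509 stood against 309, 248, 258 and 255 (-0.83 ± 0.07). Neither line had an overlap between conditions. HCC1500 had 217, 230, 234 and 238 at low and 206, 220, 359 and 217 at high glucose, and without replicate 3 the change was -0.10 ± 0.05 in place of 0.09 ± 0.17. So ADM and EGLN3, both HIF targets, went in opposite directions in MDA-MB-175 and ZR-75-30. KDM3A (ENSG00000115548, chr2:86667770-86719839, plus strand), an oxygen-using histone demethylase, was higher at high glucose in ZR-75-30 (286, 272, 269 and 260 against 340, 327, 319 and 327, a log2 change of 0.27 ± 0.05). In MDA-MB-175 the change was 0.13 ± 0.07. In HCC1500 it was 0.09 ± 0.11, and 0.18 ± 0.06 without replicate 3, past the threshold.

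DDIT4 (ENSG00000168209, chr10:74033678-74035794, plus strand) encodes REDD1, an inhibitor of mTORC1 that responds to hypoxia and other stresses. At low glucose MDA-MB-175 had 607, 556, 616 and 509, and at high glucose 734, 690, 684 and 734, a log2 change of 0.32 ± 0.06. In ZR-75-30 the values went from 3303, 3257, 3186 and 3387 to 2588, 2587, 2596 and 2262, a change of -0.39 ± 0.04. HCC1500 had 80.6, 85.8, 72.9 and 85.3 against 38.9, 52.2, 66.1 and 42.9, a change of -0.71 ± 0.17. None of the lines had overlapping conditions. The change in HCC1500 was not past the threshold without low glucose replicate 1 (-0.71), 2 (-0.68) or 4 (-0.69) or without high glucose replicate 4 (-0.65). DDIT4L, its paralog, rose in MDA-MB-175 (20.8 to 43.6, 1.03 ± 0.13, limma adjusted p = 2.8e-05) and in HCC1500 (23.9 to 45.1, 0.89 ± 0.14, limma adjusted p = 0.00313). In ZR-75-30, DDIT4L was at 1.90 at low and 4.82 at high glucose (1.22 ± 0.43, limma adjusted p = 0.0257, not past the threshold by edgeR or DESeq2).

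HIF1A (ENSG00000100644, chr14:62162231-62214977, plus strand) encodes the HIF-1 alpha subunit itself. Its values were 1349, 1404, 1370 and 1413 at low and 1489, 1661, 1494 and 1541 at high glucose in MDA-MB-175 (log2 change 0.16 ± 0.04, not past the threshold without high glucose replicate 2, at 0.12). ZR-75-30 had 1260, 1349, 1320 and 1317 against 1039, 1090, 1028 and 1094 (-0.30 ± 0.04). These changes were small and did not overlap within their line. In HCC1500, 309, 309, 297 and 280 stood against 297, 334, 149 and 323, so that replicate 3 alone carried the low mean, and the change was -0.18 ± 0.24 with it and 0.09 ± 0.05 without it. HIF1A shares 148 exon bases with annotated genes on its own strand and 432 with genes on the opposite strand, among them HIF1A-AS1 and HIF1A-AS3.

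**Figure D2:**
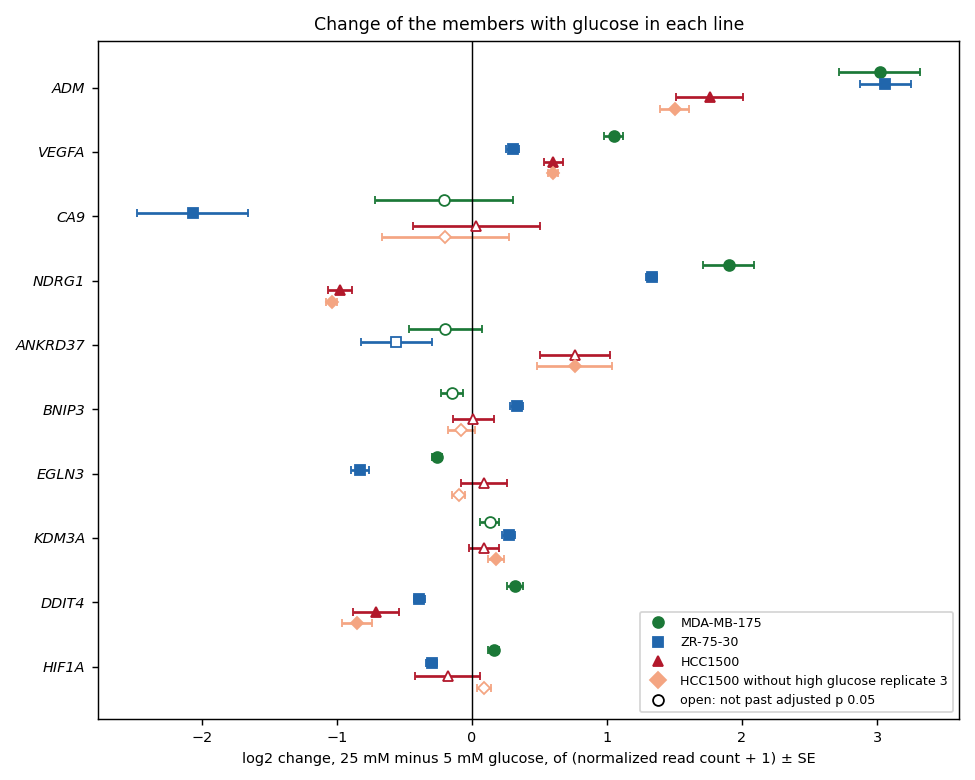
Log2 change of (normalized read count + 1), 25 mM minus 5 mM glucose, with its SE for each member and line, with filled marks past an adjusted p of 0.05 and diamonds for HCC1500 without high glucose replicate 3. ADM has the rightmost points in each line, with 3.02, 3.06 and 1.76, and NDRG1 lies on both sides of 0.

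Levels at low glucose differed between lines for most members, tested on the low-glucose cultures of the 3 lines with limma. The same cultures are part of the glucose contrast known when the members were chosen. The p-values for members between lines are therefore not independent of that choice. MDA-MB-175 and ZR-75-30 differed for 8 of 10 members, beside 73.1% of 17739 genes tested. MDA-MB-175 and HCC1500 differed for 8, beside 80.6%, and ZR-75-30 and HCC1500 for 9, beside 80.4%, so that the shares were near those of all genes. The largest difference was that of NDRG1, which was at 1054 ± 44.4 in ZR-75-30, 767 ± 27.9 in HCC1500 and 11.7 ± 2.98 in MDA-MB-175 (SD, n = 4). Its log2 difference was -6.41 ± 0.13 for MDA-MB-175 minus ZR-75-30 (limma adjusted p = 3.4e-15) and -5.95 ± 0.13 for MDA-MB-175 minus HCC1500 (limma adjusted p = 5.2e-15). DDIT4 was highest in ZR-75-30, at 3283 ± 84.2, against 572 ± 49.7 in MDA-MB-175 and 81.1 ± 5.98 in HCC1500. ZR-75-30 exceeded HCC1500 by 5.32 ± 0.06 (limma adjusted p = 4.3e-18).

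ADM was 43.3 ± 5.38 in HCC1500, above 5.87 ± 4.22 in MDA-MB-175 by 2.86 log2 units (difference -2.86 ± 0.31 for MDA-MB-175 minus HCC1500, limma adjusted p = 6.3e-07), and above 6.04 ± 1.04 in ZR-75-30 (-2.66 ± 0.31, adjusted p = 1.4e-06). MDA-MB-175 and ZR-75-30 did not differ beyond their spread (-0.20 ± 0.31, limma adjusted p = 0.578), except without low glucose replicate 3 of MDA-MB-175 (-0.57). HIF1A was 1384 ± 29.8 in MDA-MB-175 and 1312 ± 37.2 in ZR-75-30, which did not differ past the threshold (0.08 ± 0.04, limma adjusted p = 0.0779) except on the CPM scale (0.31, adjusted p = 3.5e-06), and 299 ± 13.9 in HCC1500. Both were above HCC1500, by 2.21 ± 0.04 and 2.13 ± 0.04 (limma adjusted p = 3.4e-16 for each). EGLN3 fell in the order MDA-MB-175 (1286 ± 21.6), ZR-75-30 (475 ± 29.2) and HCC1500 (230 ± 9.18), with each step past the threshold. BNIP3 was at 519 ± 44.8 in ZR-75-30, above MDA-MB-175 (107 ± 2.72) and HCC1500 (95.9 ± 0.658). The last 2 differed by 0.15 ± 0.06 (limma adjusted p = 0.0272), a call lost without MDA-MB-175 low glucose replicate 2 (0.13), without HCC1500 low glucose replicate 1 or 4 (0.15 each), and on the CPM scale (0.03). NDRG1 differed by 0.46 ± 0.13 between ZR-75-30 and HCC1500 (limma adjusted p = 0.00464), a call lost on the CPM scale (0.10).

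VEGFA was 163 ± 14.7 in MDA-MB-175, below 771 ± 25.5 in ZR-75-30 and 682 ± 31.5 in HCC1500. The last 2 differed by 0.18 ± 0.06 (limma adjusted p = 0.0114), but the sign turned on the CPM scale (-0.18). KDM3A was 177 ± 8.85 in MDA-MB-175, 251 ± 17.2 in HCC1500 and 272 ± 10.6 in ZR-75-30, with no call between the last 2 on the deposited scale (0.12 ± 0.06, limma adjusted p = 0.0702), a lower value in ZR-75-30 on the CPM scale (-0.23) and a higher one by median-of-ratios factors (0.26). Between ZR-75-30 and HCC1500 the median of all genes shifted by -0.14 with CPM and by 0.12 with median-of-ratios factors. ANKRD37 was highest in ZR-75-30 (23.2 ± 5.82 against 9.41 ± 1.79 and 6.38 ± 2.35), as was CA9 (4.22 ± 1.97 against 0.755 ± 0.717 and 1.52 ± 0.859). The CA9 call against HCC1500 (1.02 ± 0.37, limma adjusted p = 0.0194) was lost without ZR-75-30 low glucose replicate 2 (0.83) or 3 (0.91) and without HCC1500 low glucose replicate 1 (0.87) or 4 (0.89).

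The HIF subunits and regulators other than the members made a list of 11 genes, of which 10 were tested in each line, HIF3A being listed at 0 in every sample. EPAS1, which encodes HIF-2 alpha, rose in all 3 lines, from 3028 ± 158 to 4843 ± 84.6 in MDA-MB-175 (log2 change 0.68 ± 0.04, limma adjusted p = 7.6e-09), from 778 ± 18.9 to 968 ± 35.8 in ZR-75-30 (0.31 ± 0.04, 3.2e-06) and from 187 ± 14.7 to 282 ± 38.1 in HCC1500 (0.58 ± 0.12, 0.0106, not past the threshold on the CPM scale at 0.50). Its cultures did not overlap between conditions in any line. EGLN2, another prolyl hydroxylase, rose from 1664 ± 53.1 to 3567 ± 183 in ZR-75-30 (1.10 ± 0.04, limma adjusted p = 3.1e-13). In MDA-MB-175 it changed by 0.22 ± 0.07 (limma adjusted p = 0.0284), a call lost without high glucose replicate 1 (0.19), 3 (0.21) or 4 (0.23). In HCC1500 the change was 0.60 ± 0.26 (limma adjusted p = 0.134), past the threshold by edgeR (0.69), by DESeq2 (0.71), with median-of-ratios factors (0.66) and without high glucose replicate 3 (0.31). Its change differed between lines (interaction adjusted p = 0.0222, limma F test). ARNT rose in ZR-75-30 from 534 ± 38.2 to 715 ± 26.3 (0.42 ± 0.05, limma adjusted p = 1.5e-06). ARNT2 fell in MDA-MB-175 (661 to 520, -0.35 ± 0.04, limma adjusted p = 1.1e-05) and in HCC1500 (47.7 to 24, -0.97 ± 0.18, adjusted p = 0.00639). VHL changed by -0.10 ± 0.05 in MDA-MB-175, by -0.08 ± 0.18 in HCC1500 and by -0.04 ± 0.06 in ZR-75-30, past the threshold in none by limma. In HCC1500 its sign turned, to 0.12 past the threshold, without high glucose replicate 3. EGLN1, the main oxygen-sensing hydroxylase, changed by 0.16 ± 0.05 in MDA-MB-175 (limma adjusted p = 0.0186), a call lost in 4 of the 8 fits that left out 1 culture. HIF1AN, which hydroxylates HIF alpha subunits at an asparagine, fell in ZR-75-30 (-0.21 ± 0.05, limma adjusted p = 0.0027), and the co-activator CREBBP rose there (0.20 ± 0.04, adjusted p = 0.00127). EP300 and CITED2 were past the threshold in no line by limma with all cultures, and without HCC1500 high glucose replicate 3 they changed by 0.65 and 0.29 in HCC1500 (limma adjusted p = 7.0e-12 and 1.1e-04). Of the 10, 3 rose and 1 fell in MDA-MB-175 (40.0% past the threshold beside 25.7% of all genes), with 1 rise left without high glucose replicate 3. In ZR-75-30 4 rose and 1 fell, beside 46.0% of all genes, and in HCC1500 1 rose and 1 fell, beside 20.5%, so that the shares of both lines were near those of all genes. Without HCC1500 high glucose replicate 3, 6 rose and 2 fell there, beside 20.9% and 37.7% of all genes.

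**Figure D3:**
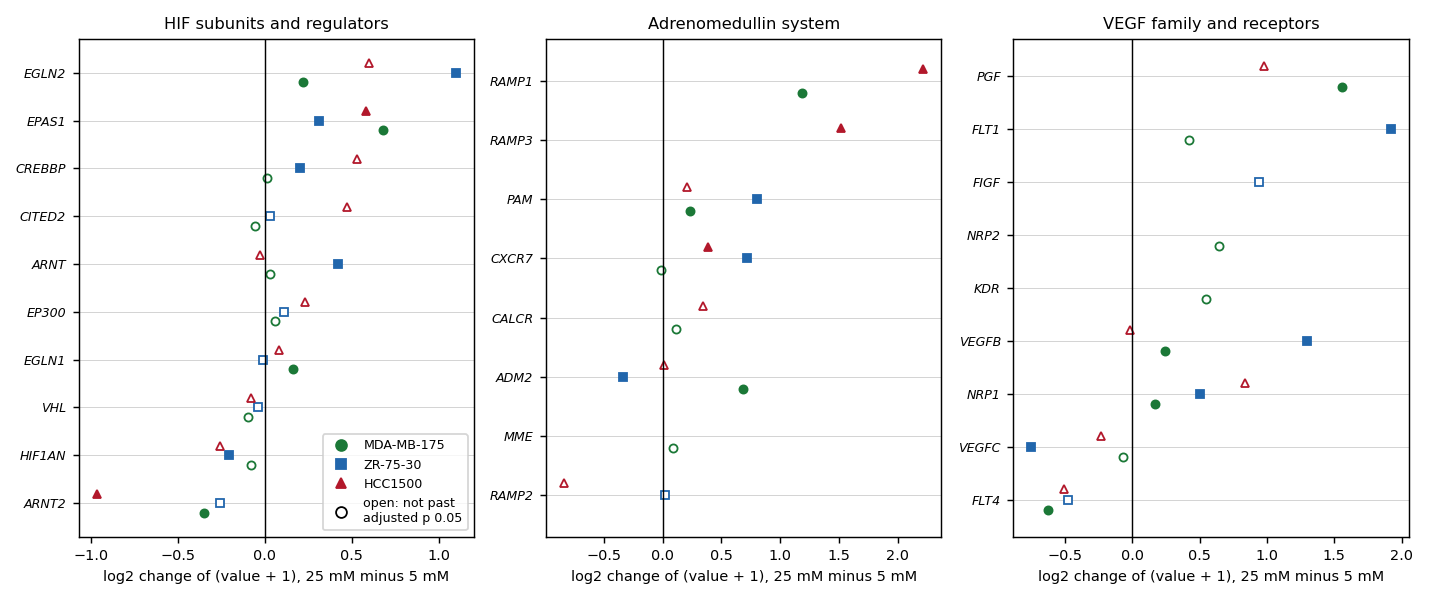
Log2 change of (normalized read count + 1), 25 mM minus 5 mM glucose, for the genes of 3 lists by cell line, with filled marks past an adjusted p of 0.05. EPAS1 is filled on the right in all 3 lines, and RAMP1 in HCC1500 has the largest change shown (2.22).

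Other HIF targets were taken as a list of 60 genes, 19 for glucose uptake and glycolysis and 41 others. This list, too, was chosen with earlier results of these data known, so its shares are a description. In MDA-MB-175, 25 of 60 rose and 10 fell (58.3% past the threshold, beside 25.7% of all genes), with a median log2 change of 0.09 beside -0.02. ZR-75-30 had 24 higher and 15 lower of 58 (67.2%, beside 46.0%), with a median of 0.12 beside 0.01. In HCC1500 12 rose and 8 fell of 58 (34.5%, beside 20.5%), and without high glucose replicate 3 20 rose and 23 fell (74.1%, beside 58.5%). The glycolytic part went both ways: 7 rose and 4 fell of 19 in MDA-MB-175, 5 rose and 8 fell of 18 in ZR-75-30, and 2 rose and 2 fell of 18 in HCC1500 (beside 25.7%, 46.0% and 20.5% of all genes past the threshold). In HCC1500 these became 4 and 10 without high glucose replicate 3 (beside 20.9% and 37.7% of all genes). They became 1 and 0 without low glucose replicate 2. PFKFB3, STC2, NFIL3, MAFF, JMJD6 and HMOX1 rose and CXCR4 and TGFB3 fell in every line. STC2 was not past the threshold in ZR-75-30 without low glucose replicate 3 (0.34) or high glucose replicate 4 (0.32). Without HCC1500 high glucose replicate 3, 8 of the 60 rose and 6 fell in every line. No share of all genes stands beside these counts or the counts of opposite directions below, so nothing is read from them. NFIL3 and JMJD6, like BHLHE40, PGK1, GPI, ALDOA and HILPDA below, were named after their values were seen. MAFF, a small basic leucine zipper factor, had log2 changes of 1.23 ± 0.07, 1.69 ± 0.05 and 1.5 ± 0.23 (MDA-MB-175 first, then ZR-75-30, HCC1500 last; limma adjusted p = 2.6e-09, 6.7e-15 and 0.00285). HMOX1, haem oxygenase 1, rose in the same order of lines by 1.36 ± 0.09, 0.88 ± 0.07 and 1.93 ± 0.23, and PFKFB3, which makes an activator of glycolysis, by 0.67 ± 0.05, 0.55 ± 0.05 and 0.82 ± 0.10. CXCR4, a chemokine receptor, fell by 0.52 on the log2 scale in MDA-MB-175 and by 0.89 in each of the other lines.

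Of the 60, 5 were past the threshold in opposite directions in a pair of lines, namely HK2, LDHA, CA12, BHLHE40 and IGFBP3, and without HCC1500 high glucose replicate 3 there were 14. HK2, the first enzyme of glycolysis, rose in MDA-MB-175 (1287 to 2067, log2 change 0.68 ± 0.04) and fell in HCC1500 (752 to 525, -0.53 ± 0.12, limma adjusted p = 0.0149, a call lost with median-of-ratios factors at -0.48, by edgeR at -0.46, by DESeq2 at -0.44 and without low glucose replicate 2 at -0.53). Its change differed between lines (interaction adjusted p = 6.5e-08, limma F test), as did that of BHLHE40 (7.3e-11), CA12 (2.1e-09), LDHA (1.0e-05) and IGFBP3 (8.4e-04), and 28 of the 60 were past the threshold in this test, beside 29.3% of all genes (5316, or 8809 without HCC1500 high glucose replicate 3). PGK1, GPI, ALDOA and HILPDA were among the 12 targets past the threshold in no line. Without HCC1500 high glucose replicate 3 there were 9, since GPI (-0.35, limma adjusted p = 7.4e-09) and PGK1 (-0.12, 0.00103), among others, fell in HCC1500.

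**Figure D4:**
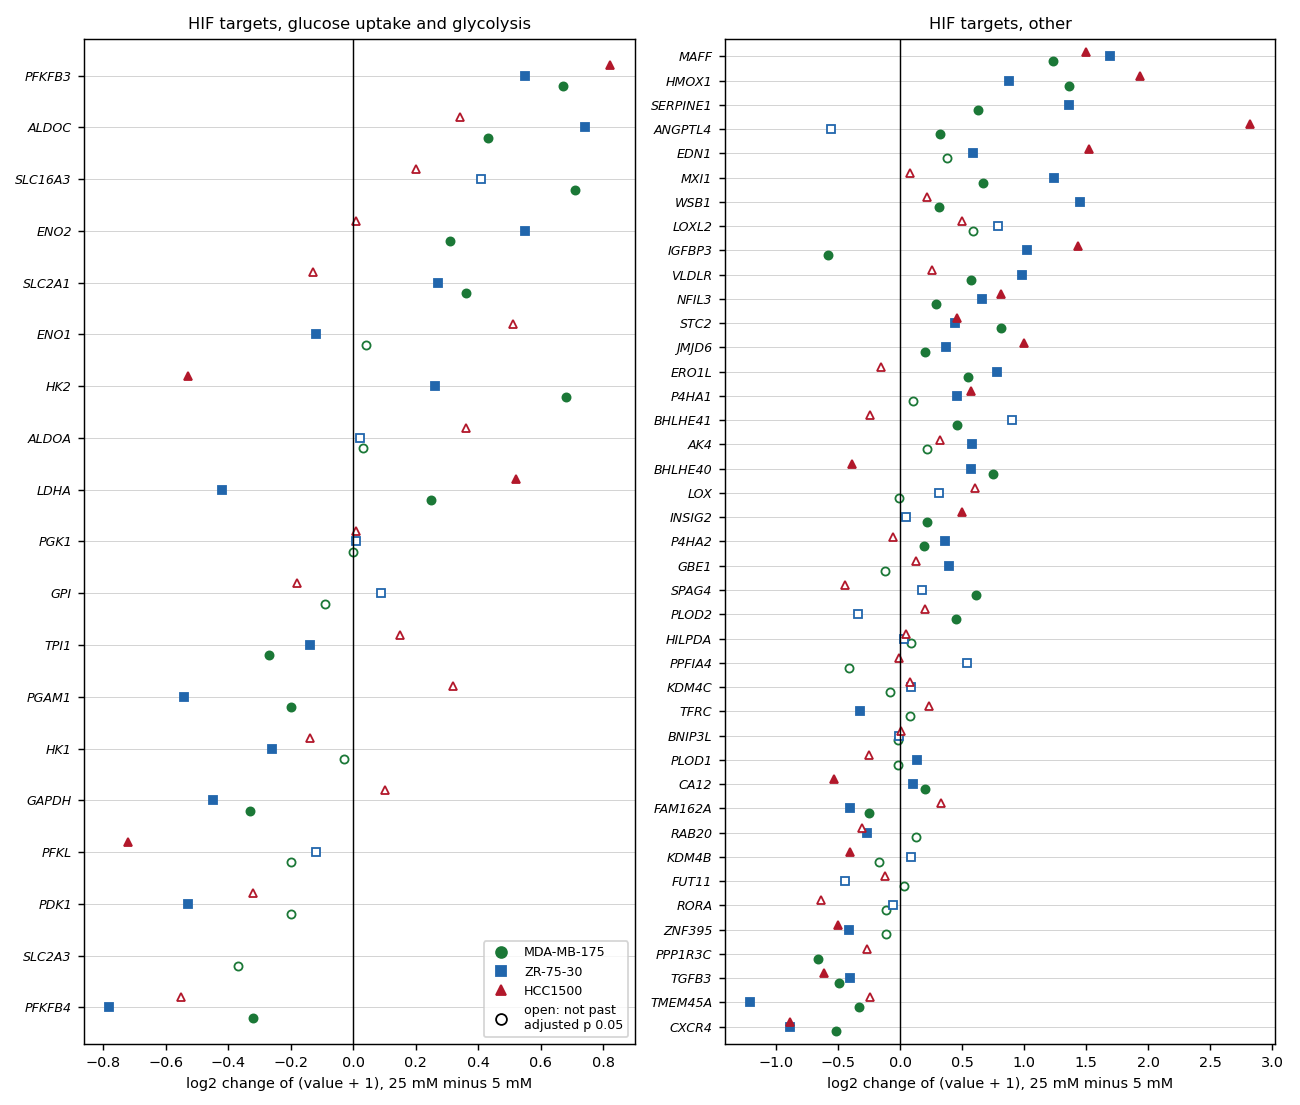
Log2 change of (normalized read count + 1), 25 mM minus 5 mM glucose, for 19 HIF targets of glucose uptake and glycolysis (left) and 41 others (right), by cell line, with filled marks past an adjusted p of 0.05. Filled marks lie on both sides of 0 in each panel, and MAFF, HMOX1 and PFKFB3 are filled on the right in all 3 lines.

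DDIT4 is also a target of ATF4, the factor of the amino acid and endoplasmic reticulum stress response, so 10 ATF4 targets were counted beside it. Whether ATF4 had a part in the changes of DDIT4 was not tested. In MDA-MB-175, where DDIT4 was higher at high glucose, 6 of 10 rose (beside 11.9% of all genes). In ZR-75-30, where DDIT4 was lower, 2 of 9 rose and 4 fell, beside 23.4% and 22.7% of all genes (66.7% past the threshold, beside 46.0%). SLC7A11, a cystine transporter, went from 91.8 to 262 in MDA-MB-175 (log2 change 1.5 ± 0.09, limma adjusted p = 7.7e-09) and from 559 to 286 in ZR-75-30 (-0.97 ± 0.05, adjusted p = 5.6e-11). ATF3, a stress-induced repressor, rose by 1.63 ± 0.12 in MDA-MB-175, by 1.0 ± 0.15 in HCC1500 and by 3.32 ± 0.34 in ZR-75-30. In HCC1500, where DDIT4 was also lower at high glucose, 4 of 10 rose (40.0%, beside 7.46% of all genes). Only ATF3 of these 4 kept its call without low glucose replicate 1, 2 or 4. Without high glucose replicate 3, 8 rose and 1 fell, beside 20.9% and 37.7% of all genes.

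The genes whose pattern was most like ADM were ranked by Pearson's r of log2(value + 1) after each line's mean was removed, over 24 samples and 13309 genes with a mean of at least 10. The closest were CTSL1, FAM102A, TPP1 and BMF (0.96 each) and CDYL (0.95). Without HCC1500 high glucose replicate 3, 3 of these 5 were still among the top 5, and BMF and CDYL ranked 8 and 10. By Spearman's rho none was among the top 5, but in the order named they ranked 6, 9, 19, 14 and 81. Of the members, VEGFA was the most like ADM (0.87, rank 118), then NDRG1 (0.68) and KDM3A (0.61), although without HCC1500 high glucose replicate 3 KDM3A (0.78) stood above NDRG1 (0.73), and EGLN3 was the least like it (-0.59). Samples of 1 line and condition share their treatment, so these values describe the glucose response and carry no p.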

How the data were processed

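RNA-Seq was done on 24 cultures of 3 human breast cancer lines, 4 per line and glucose condition. According to the study's methods, the authors trimmed reads with Trimmomatic, aligned them to hg19 with TopHat and counted Ensembl genes, while the labels list the build hg38 and name edgeR. Whether strand was used in counting was not given in the sources used here. The deposited values are a normalized signal, 1 read count per gene divided by 1 factor per sample, and they sum to 5559394 to 7594840 per sample. The authors' methods describe CPM with TMM factors from edgeR, and since sums of this size are not CPM, the factor behind the deposited values could not be matched to that description. Dividing by the smallest step gave whole reads for 100.00% of values (tolerance 0.01), 9140024 to 17998819 per sample, so precision for low genes is limited by counting.

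The table held 18889 gene IDs, of which 260 were at 0 in all samples, and 87 symbols stood under more than 1 ID. Values were tested as log2(value + 1) with limma 3.58.1 (R 4.3.3) after a filter of at least 0.5 in at least 4 fitted samples, which understates changes of low genes. Each line was fitted on its own 8 cultures, levels between lines on the low-glucose cultures, and differences of changes in a fit of all 24 samples. P-values were adjusted by Benjamini-Hochberg over all genes tested, with a threshold of 0.05. The design had assumed a normalized unit and was kept. On the recovered whole reads, edgeR 4.0.16 called 4402 genes for MDA-MB-175 (4368 by limma), 7397 for ZR-75-30 (7290) and 3576 for HCC1500 (3350), and DESeq2 1.42.0 was run as well. The fits were tested on simulated data. Alternatives were other pseudocounts, filters, scalings, tools, sample weights, a replicate block, a fit of all samples and leaving out each culture.

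The members and lists were chosen with earlier results of these data known. Genes that could be named were all members and all genes of the HIF regulator, adrenomedullin and VEGF lists. Per line, up to 3 largest rises and 3 largest falls among HIF and ATF4 targets were added. These were past the threshold with a mean of at least 10. Member paralogs by the same threshold could also be named, and not all of them are. The 5 genes most like ADM, TXNIP and the markers complete the set. Gene positions and exon overlaps are from GENCODE on GRCh37. Its genes and exons may differ from those of the Ensembl annotation used for counting. Promoter sequences are from RefSeq on GRCh38.p14, and motifs were searched on both strands. A GENCODE span covers all annotated transcripts of a gene, so its edge need not be the RefSeq start, as for EGLN3.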

Additional observations from a re-analysis of the deposited data

Results flagged for a closer look

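In groups of 4 cultures, 7 of 60 member groups held a culture far from the other 3, where chance gives about 1 in 20. ADM in HCC1500 was at 51.3 in low glucose replicate 1 (others 40.0 to 41.0) and at 255 in high glucose replicate 3 (others 111 to 133). EGLN3 was at 359 in the latter library (others 206 to 220) and at 309 in ZR-75-30 high glucose replicate 1 (others 248 to 258). DDIT4 was at 2262 in ZR-75-30 high glucose replicate 4 (others 2587 to 2596). CA9 was at 3.15 in MDA-MB-175 high glucose replicate 4 and at 0.850 in ZR-75-30 high glucose replicate 3, with the other 3 cultures at 0 in each group. The rule flags such a group whatever the remaining value is.

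For 3 members every high-glucose culture lay on opposite sides of the low-glucose cultures in a pair of lines, and these differences were not tested. The log2 change of NDRG1 was higher in MDA-MB-175 than in HCC1500 by 2.88 ± 0.18 and higher in ZR-75-30 than in HCC1500 by 2.31 ± 0.18. That of DDIT4 was higher in MDA-MB-175 than in ZR-75-30 by 0.71 ± 0.15 and than in HCC1500 by 1.03 ± 0.15. That of HIF1A was higher in MDA-MB-175 than in ZR-75-30 by 0.46 ± 0.21. The SEs are from the fit of all 24 samples, so they include the spread of lines outside the pair. Without HCC1500 high glucose replicate 3, in the order given, the NDRG1 differences were 2.95 ± 0.17 and 2.38 ± 0.17. Those of DDIT4 were then 0.71 ± 0.10 and 1.17 ± 0.11, and that of HIF1A 0.46 ± 0.06.

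Of 66 other genes that could be named, 31 had a glucose change that differed between lines (limma F test, Benjamini-Hochberg adjusted p). Over all genes the share was 29.3%, or 48.6% without HCC1500 high glucose replicate 3, and since many named genes were picked as the largest rises and falls of a line, the shares cannot be compared. Among HIF regulators the adjusted p values were 0.0282 for EPAS1, 0.00696 for ARNT, 0.0222 for EGLN2 and 0.0226 for CITED2. In the adrenomedullin system they were 0.00132 for ADM2, 0.00543 for RAMP1, 0.00188 for RAMP3, 4.4e-04 for CXCR7 and 1.1e-04 for PAM, and in the VEGF family 0.0071 for VEGFB and 0.00402 for FLT1. For glycolytic HIF targets the limma adjusted p was 6.5e-08 for HK2, 8.4e-04 for PGAM1, 0.0405 for PFKL and 1.0e-05 for LDHA. Other HIF targets had 0.0135 for PPP1R3C, 8.4e-04 for IGFBP3, 0.00232 for HMOX1, 6.2e-06 for MXI1, 0.00401 for ZNF395, 0.00122 for TMEM45A, 7.2e-06 for WSB1, 2.1e-09 for CA12, 7.2e-05 for ANGPTL4 and 1.6e-04 for EDN1. ATF4 targets had 1.9e-04 for ATF3, 3.7e-07 for SLC7A11, 2.0e-07 for ASNS, 1.3e-04 for PHGDH and 0.0485 for CHAC1, and the paralog NDRG3 had 1.2e-04.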

How the results depend on the processing

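Of the 593 member changes under other settings, 576 moved by less than the spread between replicates. Without HCC1500 high glucose replicate 3, 9504 genes were past the threshold in HCC1500 in place of 3350, 43 HIF targets in place of 20, and 8809 genes in place of 5316 for changes that differ between lines. Sample weights gave 9436, 46 and 9148. Without 1 low-glucose culture of HCC1500 the count was 2089, 2015, 2104 or 2097. A fit of all 24 samples gave 5842 genes in HCC1500, and in MDA-MB-175 2011 genes in place of 4368, 3 members in place of 6 and 17 HIF targets in place of 35. The cause was not tested. Of the 5 genes most like ADM, 3 remained in the top 5 without HCC1500 high glucose replicate 3. By Spearman's rho 0 did, with ranks from 6 to 81 of 13309. VHL in HCC1500 turned from -0.08 to 0.12 with sample weights and without that library (-0.16 to 0.12 over the fits that left out 1 culture).

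Leaving out 1 culture gave 3529 to 5038 genes, 5 to 6 members and 31 to 39 HIF targets in MDA-MB-175. In ZR-75-30 it gave 6746 to 7135 genes, 9 to 10 members and 33 to 38 HIF targets, and in HCC1500 2015 to 9504 genes, 3 to 6 members and 17 to 43 HIF targets. The average over lines had 6139 to 9012 genes and the differences between lines 4765 to 8809. Members that differed at low glucose numbered 8 to 9 between MDA-MB-175 and ZR-75-30, 7 to 9 between MDA-MB-175 and HCC1500, and 8 to 9 between ZR-75-30 and HCC1500.

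Same-numbered cultures correlated by -0.01 to 0.11 in MDA-MB-175, -0.01 to 0.05 in ZR-75-30 and -0.04 to 0.05 in HCC1500. In the same order of lines, their means were 0.04, 0.01 and 0.02, against -0.01, -0.00 and -0.01 for differently numbered cultures. Of 8 cultures per line, 3, 1 and 3 correlated best with their own number. With 4 pairs per line, these values cannot tell whether replicate numbers pair the samples. With a replicate block, 4525, 7542 and 1964 genes were past the threshold, and 6, 9 and 3 members, DDIT4 in HCC1500 being lost (-0.71).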
